A study of Mus musculus with 14 samples.

Results

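The 5 genes *Rab15*, *Svil*, *Mab21l2*, *Necab2* and *Pcp4* were described across cell states of the *Atoh1* lineage in the mouse hindbrain, as 5 of the 31054 genes counted in each of 14 single-cell RNA libraries. They were chosen by their log2 change between *Atoh1 S193A/-* and control cells of the E14.5 pontine nuclei (PN) lineage, where they were low in the mutant, so their E14.5 PN-like values are given as a description with no test. The PN are hindbrain nuclei that relay cortical signals to the cerebellum. In the study, TdTomato+ cells were sorted from C57BL/6J mice, from whole hindbrain of 3 control and 3 mutant embryos at each of E14.5 and E18.5 with 1 embryo per library, and from dissected PN of pooled control pups in 2 libraries at P5.

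Control embryos were *Atoh1 Cre/+; Rosa lsl-tdTomato/+* and mutant embryos were *Atoh1 Cre/S193A; Rosa lsl-tdTomato/+*. The Cre cassette takes the place of the *Atoh1* coding region, so the controls carried 1 functional copy of *Atoh1* and the mutants carried 1 copy with serine-193 changed to alanine, a hypomorphic allele. The reporter marks cells that have expressed *Atoh1* and their descendants. The P5 libraries held pooled controls, with no mutant to compare. Each mutant embryo was collected with its littermate control, and equal replicate numbers were taken to mark a litter. By the study's sample information, E14.5 replicate 1 held a female control and a male mutant, replicate 2 was male and replicate 3 female. The E18.5 replicates were matched for sex. Sex did not enter the fits.

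The product of *Atoh1* is a helix-loop-helix transcription factor that binds E-box motifs and is needed by the rhombic lip, the dorsal hindbrain zone that gives rise to PN neurons and to cerebellar granule cells. PN cells pass from dividing progenitors through intermediate progenitors, in which *Atoh1* is high, to migrating and then differentiated neurons. Granule cells pass from dividing granule progenitors to newborn granule neurons. *Rab15* encodes a small GTPase of endosomal recycling. *Svil* encodes supervillin, a relative of villin and gelsolin that binds actin filaments and myosin II. *Mab21l2* belongs to the male-abnormal-21-like family and is needed for eye development. *Necab2* encodes a neuronal EF-hand calcium-binding protein, and *Pcp4* encodes a small protein with an IQ motif that binds calmodulin.

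Positions are given in GRCm38 for 4 of the 5 genes. *Rab15* (ENSMUSG00000021062) is at chr12:76797960-76822908 on the minus strand and overlaps *Fntb* on the opposite strand. *Mab21l2* (ENSMUSG00000057777) is at chr3:86545581-86548629 on the minus strand, inside *Lrba* on the opposite strand. *Necab2* (ENSMUSG00000031837) is at chr8:119446719-119472640 and *Pcp4* (ENSMUSG00000090223) at chr16:96467606-96525793, both on the plus strand. *Pcp4* overlaps *Igsf5* on the same strand, so strand does not tell them apart. The count tables did not list *Igsf5* under its identifier. *Svil* (ENSMUSG00000024236) was matched by identifier. Reads were counted by strand, so the opposite-strand partners were kept apart.

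Promoters were read from RefSeq (GRCm38.p6) as 250 bases before to 50 bases after a start, and 4 of the 5 genes had one printed or searched here. The first *Rab15* start and the *Mab21l2* start are shown because these genes fell again outside the cells used to choose them. Lower case marks bases of no motif, and capitals mark the E-box CAGCTG. The *Rab15* window lies at chr12:76822475-76822774 and the *Mab21l2* window at chr3:86548234-86548533, both on the minus strand and written 5′ to 3′.
Rab15: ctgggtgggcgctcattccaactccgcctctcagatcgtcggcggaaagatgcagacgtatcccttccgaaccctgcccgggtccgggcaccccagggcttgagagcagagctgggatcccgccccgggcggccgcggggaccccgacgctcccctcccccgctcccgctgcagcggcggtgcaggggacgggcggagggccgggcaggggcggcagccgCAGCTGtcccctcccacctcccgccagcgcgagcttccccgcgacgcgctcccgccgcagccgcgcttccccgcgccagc
Mab21l2: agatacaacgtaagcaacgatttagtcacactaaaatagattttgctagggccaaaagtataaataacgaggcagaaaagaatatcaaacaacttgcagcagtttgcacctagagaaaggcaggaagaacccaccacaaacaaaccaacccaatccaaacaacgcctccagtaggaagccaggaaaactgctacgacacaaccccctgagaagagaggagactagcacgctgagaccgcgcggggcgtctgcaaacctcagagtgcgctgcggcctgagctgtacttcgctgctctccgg
The *Rab15* window held 1 CAGCTG, starting 30 bases before the start site. Of the 4 annotated *Rab15* starts, the second held 1 CAGATG, starting 16 bases before it, and the third and the fourth held neither motif. CAGATG was searched on both strands, where it reads CATCTG, and CAGCTG reads the same on either. The windows of *Mab21l2*, *Necab2* and *Pcp4* held neither. Of 32851 promoters of the same length, 16.3% held CAGCTG and 17.2% held CAGATG. A match describes letters in a window and is not a binding site.

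Levels are given as CPM, the UMIs of a gene per 1000000 UMIs summed over the cells of a class in a library. The libraries held 150188 barcodes, of which 80381 cells passed the filters, with median depths of 12012 to 20912 UMIs per cell. Any pair of libraries shared 3 to 22 barcodes, at most 0.345% of the smaller library. Cell classes were rebuilt from marker genes, end in "-like" for that reason, and may differ from the study's own. Control libraries 1 and 2 at E14.5 carried an earlier Cell Ranger version in their headers than the other 12. Litter 2 at E14.5 stood apart in both genotypes for *Pcp4*, *Necab2* and *Mab21l2*, and values without it are given where it moved a difference most.

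The label of the genes was checked against the E14.5 PN-like states. The intermediate progenitor-like class held 235 control cells and 440 mutant cells, with 23 cells in control library 2 and 30 in mutant library 2. *Atoh1* was at 743, 534 and 513 CPM in the 3 controls and 712, 541 and 613 CPM in the 3 mutants, and the groups overlapped. *Nhlh1*, a transcription factor of newly formed neurons, was at 23.4, 14.4 and 18.1 CPM against 6.55, 1.76 and 5.97 CPM, with every mutant below every control. *Ccnd1*, the cell-cycle gene of cyclin D1, was at 104, 373 and 109 CPM against 252, 833 and 277 CPM. The groups overlapped, but each mutant lay above its littermate. *Ccnd1* was not called without the block (1.26, SE 0.53, edgeR adjusted p 0.99998) and was called higher with the litter as a block (1.24, SE 0.10, edgeR adjusted p 3.95e-07), a fit that called 125 of 9069 genes. Its part in the differences of the 5 genes was not tested. *Mapt*, a neuronal microtubule gene, was at 14.6, 23.9 and 35.4 CPM against 14.9, 22.9 and 23.3 CPM. Litter 2 was the highest for *Ccnd1* within each genotype. The label covered *Rab15* and *Svil*, whose mutants all lay below every control in intermediate progenitor-like cells. *Mab21l2* and *Pcp4* had lower mutant means there, but their groups overlapped. Over all alternatives their log2 changes there ran over -1.50 to -0.69 for *Mab21l2* and -1.76 to -0.68 for *Pcp4*. The main-fit change of *Mab21l2* was larger in progenitor-like cells (-1.55, SE 0.38, and -0.88 without litter 2). *Necab2* and *Pcp4* had their largest differences in migrating neuron-1-like cells, with the limit for *Pcp4* that without litter 2 the change was -2.56 there and -2.68 in migrating neuron-2-like cells. *Nhlh1* was not called in migrating neuron-1-like cells without the block and was called lower with it (-0.40, SE 0.08, edgeR adjusted p 0.0287), a fit that called 110 of 9340 genes. Its part in the *Necab2* and *Pcp4* differences was not tested.

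*Rab15* was highest in intermediate progenitor-like and migrating neuron-1-like control cells, at 138 ± 33.5 and 146 ± 44.2 CPM (SD, n = 3), which did not differ beyond their spread. It was at 27 ± 8.27, 21.3 ± 4.47 and 18.1 ± 5.97 CPM in migrating neuron-2-like, differentiated and progenitor-like control cells, and these neighbours also overlapped. In intermediate progenitor-like cells the controls were at 175, 110.1 and 128 CPM and the mutants at 21.5, 5.29 and 15.7 CPM, a log2 change of -3.06 (SE 0.26) with no overlap. In migrating neuron-1-like cells the controls were at 163, 180.1 and 96.3 CPM and the mutants at 56.6, 56.5 and 32.5 CPM, a log2 change of -1.65 (SE 0.25), again with no overlap. Progenitor-like cells also separated, with 12.4, 24.3 and 17.7 CPM in controls and 2.2, 6.11 and 1.32 CPM in mutants, a log2 change of -2.64 (SE 0.47). After the intermediate state the gap was narrower, with a log2 change of -0.96 (SE 0.28) in migrating neuron-2-like cells and -0.31 (SE 0.22) in differentiated cells. The groups overlapped in the differentiated cells alone. At Leiden resolution 2.0, which split the clusters more finely, the change in intermediate progenitor-like cells was -2.32. Against control library 3 alone, which shared its Cell Ranger version with the mutants, the change was -2.96 for intermediate progenitors, -1.08 in migrating neuron-1-like and -0.34 in migrating neuron-2-like cells.

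*Svil* had the narrowest peak, at 235 ± 45.7 CPM in intermediate progenitor-like control cells against 92.8 ± 63.3 in migrating neuron-1-like, 34.2 ± 5.07 in progenitor-like and 8.81 ± 4.87 in migrating neuron-2-like cells. In differentiated cells it was at 1.48 ± 0.742 CPM, under the filter on low values. In intermediate progenitor-like cells the controls were at 262, 261 and 182 CPM and the mutants at 45.6, 54.6 and 35.8 CPM, a log2 change of -2.44 (SE 0.19). Every mutant lay below every control there. Progenitor-like cells held 40.0, 31.8 and 30.8 CPM in controls and 16.2, 15.1 and 19.4 CPM in mutants, also without overlap. In migrating neuron-1-like cells the controls ranged widely, at 77.3, 162 and 38.8 CPM against 28.5, 55.5 and 25 CPM in mutants. The groups overlapped, though each mutant lay below its littermate. The log2 change there was -1.39 (SE 0.46), -0.70 without control library 2 and -0.16 against control library 3 alone. In migrating neuron-2-like cells the change was 0.09 (SE 0.55), and 1.21 against control library 3 alone.

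*Mab21l2* was higher in the later control states, going from 13.2 ± 7 CPM in progenitor-like cells to 116 ± 52.2 in intermediate progenitor-like cells and 593 ± 136 in migrating neuron-1-like cells. It was at 765 ± 91.7 CPM in migrating neuron-2-like and 627 ± 85.7 CPM in differentiated cells, and these last 3 states had overlapping values. In intermediate progenitor-like cells the controls were at 158, 57.4 and 133 CPM and the mutants at 85.7, 1.76 and 63.8 CPM. The groups overlapped, though each mutant lay below its littermate, and library 2 was the lowest of each genotype. The log2 change was -1.05 (SE 0.48), and -0.95 without litter 2. Progenitor-like cells had 6.21, 20.2 and 13.1 CPM in controls and 5.23, 3.47 and 5.64 CPM in mutants, with no overlap. From the migrating states on the changes were -0.40 (SE 0.30), -0.10 (SE 0.23) and 0.01 (SE 0.27), with overlap in each. Over all alternatives the first of them ran over -0.63 to -0.075.

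*Necab2* was nearly absent from intermediate progenitor-like cells, at 5.73, 4.79 and 3.14 CPM in controls and 3.14, 1.76 and 1.57 CPM in mutants, under the filter. It was at 72.5 ± 4.56 CPM in migrating neuron-1-like and 278 ± 35.8 CPM in migrating neuron-2-like control cells. In migrating neuron-1-like cells the controls were at 75.7, 67.3 and 74.5 CPM and the mutants at 36.5, 23.6 and 29.7 CPM, a log2 change of -1.33 (SE 0.15) with no overlap, and -0.90 at Leiden resolution 2.0. Migrating neuron-2-like cells held 284, 311 and 240.0 CPM in controls and 162, 235 and 144 CPM in mutants, a change of -0.66 (SE 0.19), also with no overlap. In differentiated cells litter 2 was high in both genotypes, at 85.1, 254 and 89.3 CPM in controls and 69.7, 231 and 68.8 CPM in mutants. The groups overlapped in those cells, though each mutant lay below its littermate, with a change of -0.27 (SE 0.59), and -0.39 without litter 2. Its direction turned in some alternatives, which ran over -1.10 to 0.44.

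*Pcp4* was at 433 ± 326 CPM in migrating neuron-2-like and 277 ± 75.8 CPM in migrating neuron-1-like control cells, which overlapped, and lower in the earlier states. In migrating neuron-1-like cells the controls were at 232, 365 and 235 CPM and the mutants at 39.7, 82.9 and 40.8 CPM, a log2 change of -2.38 (SE 0.29) with no overlap, and -1.31 at Leiden resolution 2.0. In migrating neuron-2-like cells the controls were at 271, 808 and 220.3 CPM and the mutants at 39.5, 432 and 38.9 CPM, so that mutant library 2 lay above 2 controls. Each mutant lay below its own littermate. The change of -1.37 (SE 0.90) became -2.68 without litter 2 and -3.53 without mutant library 2. Intermediate progenitor-like cells held 33.8, 14.4 and 40.9 CPM in controls and 15.5, 28.2 and 15.7 CPM in mutants, with overlap. The mutant of litter 2 lay above its littermate there. The change was -0.93 (SE 0.31), and -1.24 without litter 2, where the groups separated. Progenitor-like cells had a change of -0.43 (SE 0.35), which was 0.16 against control library 3 alone. In differentiated cells the values were 96.6, 282 and 92.4 CPM against 42.2, 234 and 60.5 CPM. Litter 2 was high in both genotypes, and each mutant lay below its littermate. The change there was -0.54 (SE 0.69), and -0.92 without litter 2. Its direction turned in some alternatives, which ran over -1.66 to 0.19.

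**Figure D1:**
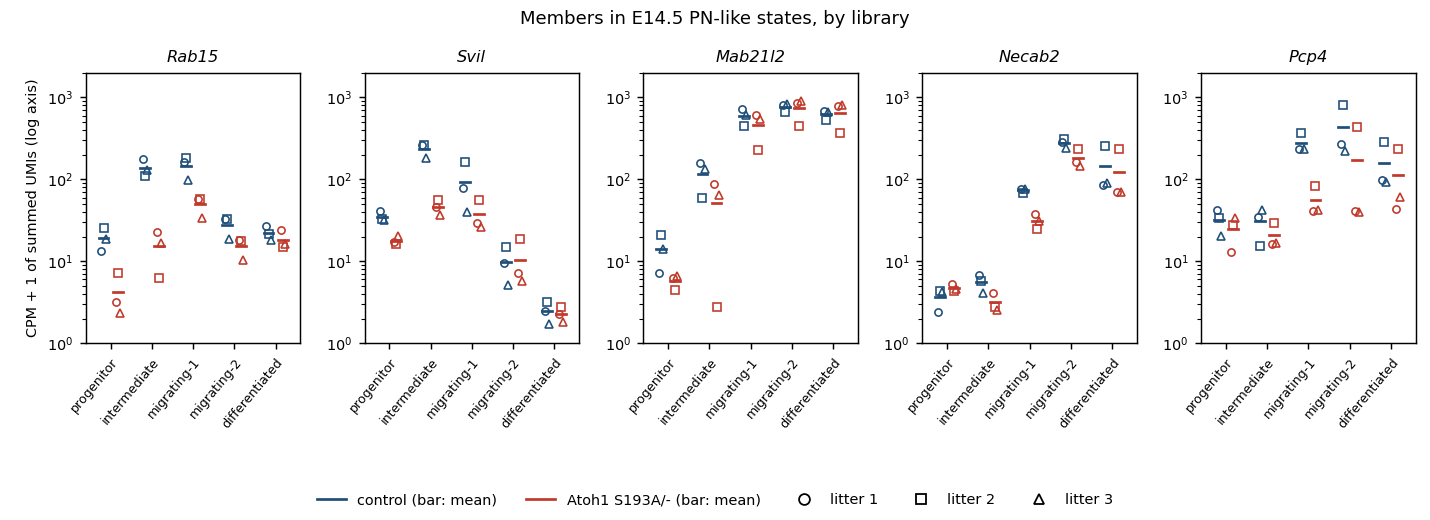
CPM plus 1 on a log axis for each of the 5 genes in the 5 E14.5 PN-like states, by library, with the litter as the symbol and the group mean as a bar. *Rab15* and *Svil* mutants sit below every control in progenitor-like and intermediate progenitor-like cells, *Necab2* and *Pcp4* mutants do so in migrating neuron-1-like cells, and litter 2 is high for *Pcp4* in both genotypes of migrating neuron-2-like cells.

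The share of control cells with a UMI was taken after each cell was thinned to 5000 UMIs, which left out 17 of 3322 control and 10 of 3979 mutant cells of the E14.5 PN-like states. *Rab15* had a UMI in 49% of migrating neuron-1-like cells, against 3.15% of inhibitory neuron-like cells. *Svil* had a UMI in 46.1% of intermediate progenitor-like cells, against 0.196% of inhibitory neuron-like cells. *Mab21l2*, *Necab2* and *Pcp4* had their highest shares in migrating neuron-2-like cells, and each share lay far above its lowest. The *Mab21l2* share was 95.8%, against 1.95% of choroid plexus-like cells. The *Necab2* share was 69.9%, against 0.931% of PN intermediate progenitor-like cells, and the *Pcp4* share was 61.1%, against 10.3% of PN progenitor-like cells. Unthinned shares in those highest classes were 81.8% for *Rab15*, 68.4% for *Svil*, 99.9% for *Mab21l2*, 93.5% for *Necab2* and 79.3% for *Pcp4*. Median depths per library ran from 13752 to 19089 UMIs in the highest classes and from 12140.5 to 23527 UMIs in the lowest.

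The granule lineage came from the same embryos but from other cells than those used to choose the genes, and its differences were tested. A gene was called when edgeR's quasi-likelihood test gave an adjusted p below 0.05 and an absolute log2 change above 0.25, over all genes detected in 10% or more of either genotype's cells. In E14.5 granule progenitor-like cells edgeR called 0 of the 5 genes, and 0% of all genes tested were called lower. At an unadjusted p under 0.05 there were 2 of the 5, *Rab15*, lower, and *Necab2*, higher, against 3.73% of all genes tested in either direction. DESeq2 called 1 (0.0681% of genes tested were lower) and the fit with the litter as a block called 1. *Rab15* was at 69, 71.9 and 32.1 CPM in controls and 11, 17.2 and 8.85 CPM in mutants, and every mutant lay below every control. This was a log2 change of -2.32 (SE 0.32, 95% interval -3.05 to -1.59), with an edgeR adjusted p of 0.113. With the litter as a block, the *Rab15* change was -2.20 (SE 0.15) with an edgeR adjusted p of 0.000238, and 0.341% of genes tested were called lower in that fit. Without control library 3 the edgeR adjusted p was 0.011, and over all alternatives the adjusted p ran over 4.2e-13 to 0.9999. Against control library 3 alone, of the mutants' Cell Ranger version, the change was -1.53 (SE 0.308).

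The other 4 genes were not called in E14.5 granule progenitor-like cells by any of these fits. *Mab21l2* was at 44.7, 33.6 and 66.6 CPM in controls and 38.5, 29.6 and 33 CPM in mutants, a log2 change of -0.53 (95% interval -1.07 to 0.01). *Svil* changed by -0.47 (95% interval -1.08 to 0.14) and *Necab2* by 0.59 (95% interval 0.04 to 1.15), from 7.37 ± 1.21 CPM in controls. *Pcp4* was abundant, at 284, 476 and 215 CPM in controls and 82.7, 821 and 145 CPM in mutants. The *Pcp4* change was 0.06 (95% interval -1.48 to 1.60), and -1.11 without litter 2, whose mutant library was the highest of all 6.

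In E14.5 newborn granule neuron-like cells 3 of the 5 genes passed the filter and edgeR called 0, with 1 at an unadjusted p under 0.05, against 2.2% of all genes tested in either direction. DESeq2 and the block also called 0 of the 3, against 0.0209% and 0.0209% of genes tested called lower by them. Of all genes tested by edgeR without the block, 0% were called lower. *Rab15* was at 37.1, 42 and 27.9 CPM in controls and 24.4, 18.6 and 17.7 CPM in mutants, with no overlap and a log2 change of -0.84 (SE 0.20, edgeR adjusted p 0.9993). *Mab21l2* was at 46.6, 48.6 and 46.6 CPM against 67.7, 39.8 and 76 CPM, a change of 0.35 (95% interval -0.13 to 0.84). *Pcp4* changed by 0.03 (95% interval -1.25 to 1.31), with litter 2 highest in both genotypes. *Svil* and *Necab2* were under the filter, at 2.24 ± 1.06 and 4.59 ± 1.92 CPM in controls.

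At E18.5, *Rab15* and *Mab21l2* were lower in mutant granule progenitor-like cells and were the genes called there, 2 of the 4 that passed the filter, against 0.193% of all genes tested called lower. *Rab15* was at 21.8, 33.4 and 26.3 CPM in controls and 4.99, 5.93 and 6.56 CPM in mutants, 4.81 times lower. Its log2 change was -2.27 (SE 0.19) with an edgeR adjusted p of 0.00484. The groups did not overlap, and the *Rab15* call held in every alternative run. With the litter as a block the same 2 genes were called, among 0.924% of genes called lower. *Mab21l2* was at 21.4, 18.8 and 24.3 CPM in controls and 11.6, 7.18 and 10.6 CPM in mutants, 2.22 times lower, also without overlap. Its log2 change was -1.15 (SE 0.17) with an edgeR adjusted p of 0.0387. The *Mab21l2* call was lost without control library 1, 2 or 3 or mutant library 2 or 3, with edgeR adjusted p of 0.095, 0.0871, 0.0999, 0.0628 and 0.153, and at a 4% mitochondrial limit, with 0.251, while its log2 change ran over -1.30 to -0.98 in the alternatives.

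*Svil* and *Pcp4* were not called in E18.5 granule progenitor-like cells. *Svil* was at 30.1, 26.9 and 24.7 CPM in controls and 31.8, 29.5 and 34.5 CPM in mutants, a log2 change of 0.21 (95% interval 0.04 to 0.37, edgeR adjusted p 0.576). *Pcp4* was at 6.09, 5.48 and 9.84 CPM against 5.28, 2.93 and 6.39 CPM, a change of -0.59 (95% interval -1.28 to 0.11). *Necab2* was under the filter, at 4.27 ± 0.281 CPM in controls and 4.1 ± 0.654 CPM in mutants (SD, n = 3).

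In E18.5 newborn granule neuron-like cells edgeR called 0 of 3 genes, against 0% of all genes tested called lower. There were 2 of the 3 at an unadjusted p under 0.05, against 2.44% of all genes tested in either direction. DESeq2 called 1 (0.0215% of genes tested were lower) and the block called 1. *Mab21l2* was at 29.6, 26.1 and 30.0 CPM in controls and 16.4, 8.31 and 15.3 CPM in mutants, with no overlap. Its log2 change was -1.10 (SE 0.20) with an edgeR adjusted p of 0.9995, which was 0.00387 with the litter as a block, a fit that called 0.0644% of genes tested lower. Over all alternatives the *Mab21l2* edgeR or DESeq2 adjusted p ran over 5.55e-05 to 1. *Rab15* was at 18, 22.1 and 26.1 CPM against 15.4, 16.6 and 19.8 CPM, with overlap and a change of -0.38 (95% interval -0.73 to -0.02). *Pcp4* changed by -0.32 (95% interval -0.71 to 0.08). *Svil* and *Necab2* were under the filter, at 1.78 ± 0.377 and 3.05 ± 0.542 CPM in controls.

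**Figure D2:**
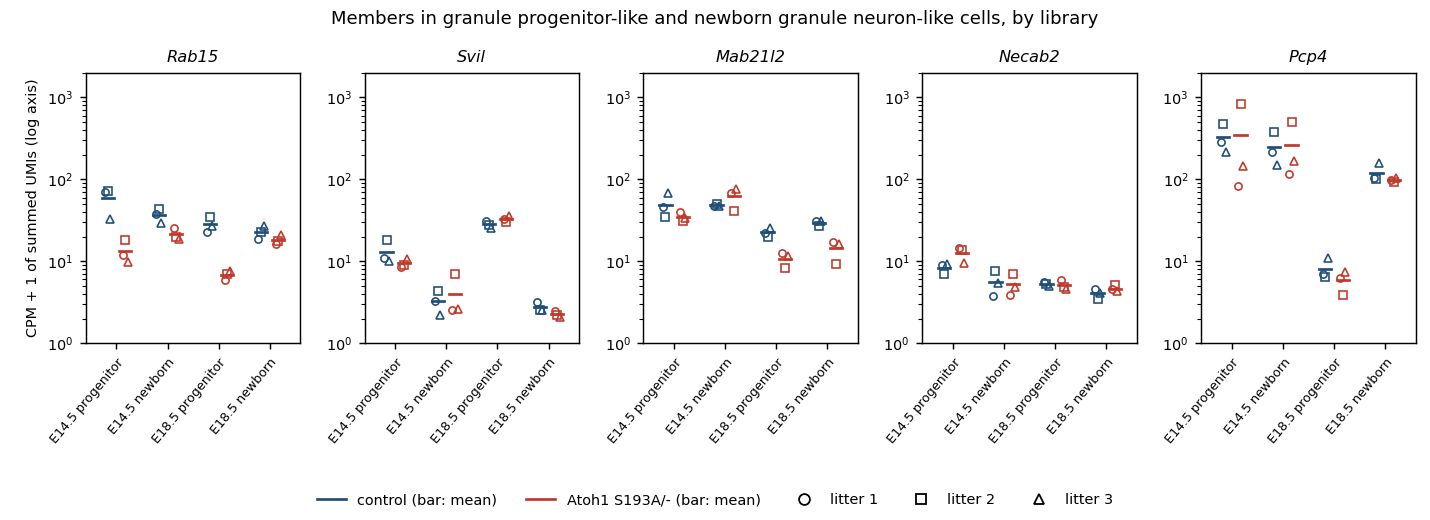
CPM plus 1 on a log axis for each of the 5 genes in granule progenitor-like and newborn granule neuron-like cells at E14.5 and E18.5, by library, with the litter as the symbol and the group mean as a bar. *Rab15* mutants lie below every control in granule progenitor-like cells at both stages, *Mab21l2* mutants do so at E18.5, and *Pcp4* is lower at E18.5 than at E14.5 in granule progenitor-like cells of both genotypes.

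Whether the genotype effect in granule progenitor-like cells changed between E14.5 and E18.5 was tested as an interaction, in which edgeR called 0 of 5 genes, with 2 at an unadjusted p under 0.05 (*Svil* and *Necab2*, against 4% of all genes tested) and 0 by DESeq2, which called 0.0382% of genes tested. The difference of log2 changes for *Rab15* was 0.09 (95% interval -0.82 to 0.99). For *Svil* it was 0.65 (95% interval 0.08 to 1.22) and for *Mab21l2* -0.61 (95% interval -1.31 to 0.09). *Necab2* differed by -0.63 (95% interval -1.23 to -0.03) and *Pcp4* by -0.62 (95% interval -2.70 to 1.45). Of all genes tested, 0% were called in the interaction. Genes that passed the filter at either stage entered this test. *Necab2* passed at E14.5 alone, where it was higher, so its unadjusted p is no support for a difference.

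Between the stages themselves, edgeR called all 5 genes in control granule progenitor-like cells, 4 of them lower at E18.5. Of all genes tested, 18.4% were called lower and 19.6% higher. *Pcp4* fell most, from 325 ± 135 to 7.14 ± 2.36 CPM (SD, n = 3), a log2 change of -5.55 (SE 0.34, edgeR adjusted p 8.52e-06). *Mab21l2* fell by 1.26 (SE 0.22, edgeR adjusted p 0.00253) and *Necab2* by 0.87 (SE 0.17, edgeR adjusted p 0.00435) on the log2 scale. *Rab15* fell by 1.09 (SE 0.27, edgeR adjusted p 0.0132), a call lost without E14.5 control library 1 or 2, at edgeR adjusted p of 0.052 and 0.0545. *Svil* was higher at E18.5, 27.2 ± 2.69 against 12.2 ± 4.6 CPM, a log2 change of 1.18 (SE 0.20, edgeR adjusted p 0.00195). *Rab15* in E14.5 control library 3, of the Cell Ranger version of the E18.5 libraries, was at 32.1 CPM, within the E18.5 control range of 21.8 to 33.4 CPM. The stages were separate litters, and their cells were clustered and named apart. Stage, litter, class make-up and in part Cell Ranger version cannot be told apart.

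In the E18.5 PN-like cells none of the 5 genes was called. The migrating and differentiated classes were tested, and the intermediate progenitor-like class was not, since 2 of the mutant libraries held 7 and 1 cells of it. In migrating neuron-like cells edgeR called 0 of 3 genes that passed the filter. At an unadjusted p under 0.05 there was 1 of the 3, against 4.24% of all genes in either direction. Of all genes tested, edgeR called 0.0523% lower. DESeq2 and the block also called 0 of the 3, and called 0.0418% and 0.115% of genes tested lower. *Necab2* was at 16.6, 16.5 and 14.2 CPM in controls and 3.43, 8.8 and 5.64 CPM in mutants, with no overlap, a log2 change of -1.62 (95% interval -2.37 to -0.88, edgeR adjusted p 0.279). Over all genes with at least 1 UMI the *Necab2* edgeR adjusted p was 0.00689, in a fit that called 23 of 17218 genes lower. Over all alternatives it ran over 0.00689 to 0.9999. *Rab15* changed by -0.40 (95% interval -0.94 to 0.14) and *Mab21l2*, at 1090.0, 917 and 1029.5 CPM in controls, by -0.09 (95% interval -0.28 to 0.09). *Svil* and *Pcp4* were under the filter, at 1.65 ± 0.849 and 5.86 ± 2.49 CPM in controls.

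In differentiated PN-like cells edgeR called 0 of 3 genes. At an unadjusted p under 0.05 there were 0 of the 3, against 5.1% of all genes in either direction. Of all genes tested, edgeR called 0.05% lower. DESeq2 and the block also called 0 of the 3, and called 0.08% and 0.2% of genes tested lower. *Rab15* was at 19.9, 23.8 and 24.7 CPM in controls and 21.5, 26 and 27.6 CPM in mutants, a log2 change of 0.10 (95% interval -0.19 to 0.40). *Mab21l2* changed by -0.03 (95% interval -0.16 to 0.11), the narrowest of these intervals. *Pcp4* was at 219.6, 70.1 and 163 CPM against 129.9, 162 and 163 CPM, a change of -0.01 (95% interval -0.64 to 0.62). The make-up of the class differed between genotypes, with 260 of 1146 control cells and 80 of 1055 mutant cells in its ePN1-like subtype. Among control differentiated subtypes *Pcp4* ran from 8.39 ± 5.24 CPM in ePN1-like to 261 ± 132 CPM in ePN2-like cells. Within ePN2-like cells *Pcp4* was at 363, 112 and 309 CPM in controls and 171, 136 and 210.1 CPM in mutants. Within ePN3-like cells it was at 197, 53.6 and 79.2 against 98.8, 281 and 145 CPM, and the groups overlapped in both subtypes, with no test. *Svil* and *Necab2* were under the filter, at 0.297 ± 0.514 and 7.19 ± 2.89 CPM in controls.

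The few E18.5 intermediate progenitor-like cells are given as values. In the 3 controls, with 24, 24 and 10 cells, *Rab15* was at 168, 135 and 234 CPM and in mutant library 1, with 47 cells, at 28.9 CPM. *Svil* was at 216, 76.4 and 109 CPM in the controls and 62.6 CPM in that mutant. *Mab21l2* was at 719.9, 629 and 796 CPM in the controls and 454 CPM in that mutant. For these 3 genes the 1 mutant library was below the 3 controls, with no test. How many of all genes did so was not counted, so this position has nothing to be judged against. *Necab2* and *Pcp4* had at most 4 UMIs in a control library and 0 and 5 UMIs in that mutant library, too few to place them.

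**Figure D3:**
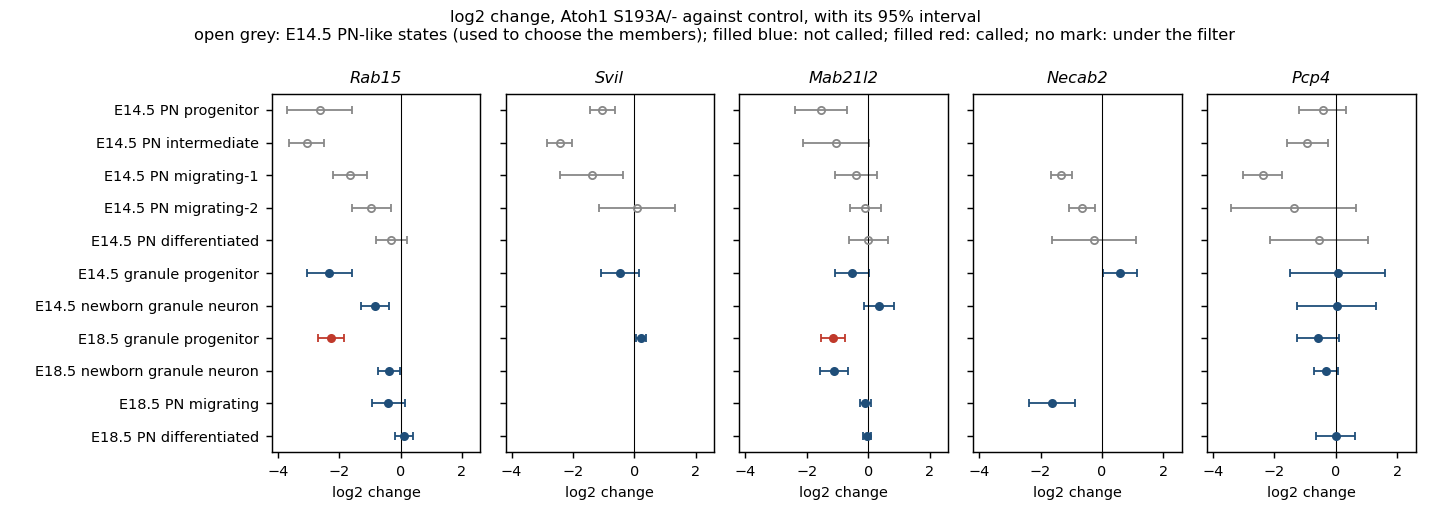
Fitted log2 change of *Atoh1 S193A/-* against control with its 95% interval, for each gene in 11 class and stage comparisons. Open grey points are the E14.5 PN-like states used to choose the genes, filled red points are called, filled blue points are not, and *Rab15* and *Mab21l2* in E18.5 granule progenitor-like cells are the red points.

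Whether every mutant lay below every control was counted for each comparison, beside the same count over all genes tested. In the E14.5 PN-like states, which chose the genes, this held for 3 of 4 genes in progenitor-like cells (3.02% of all genes), 2 of 4 in intermediate progenitor-like cells (4.62%), 3 of 5 in migrating neuron-1-like cells (4.05%), 2 of 5 in migrating neuron-2-like cells (2.23%) and 0 of 4 in differentiated cells (1.5%). In the granule lineage it held at E14.5 for 1 of 5 genes in progenitor-like cells (4%) and 1 of 3 in newborn neurons (2.49%). In those E14.5 progenitor-like cells every *Necab2* mutant lay above every control, at 13.7, 12.9 and 8.42 against 7.91, 5.99 and 8.22 CPM, as did 4.28% of all genes tested. At E18.5 every mutant lay below every control for 2 of 4 genes in progenitor-like cells (3.51%) and 1 of 3 in newborn neurons (1.62%). In E18.5 PN-like cells it held for 1 of 3 genes in migrating cells (4.53%) and 0 of 3 in differentiated cells (4.37%). The 1 gene was *Necab2*, which passed the filter there through the controls alone.

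Relatives and partners of the 5 genes were counted over the 11 genotype comparisons, in which 3.82% of all gene and comparison pairs had an unadjusted p under 0.05 and edgeR called 0.032% lower and 0.015% higher. Of the Rab GTPases and recycling partners, 18 to 21 of 22 genes were tested per comparison and edgeR called 0 of 217 gene and comparison pairs, with 4 at an unadjusted p under 0.05 and 0 by DESeq2. The block called 1, *Rab3b*, a synaptic vesicle Rab, higher in E18.5 differentiated PN-like cells. Of the villin family and actin partners, 5 to 8 of 15 genes were tested and edgeR called 0 of 78 pairs, with 5 at an unadjusted p under 0.05 and 0 by DESeq2. The block called *Actn1*, an actin crosslinker, lower in E18.5 granule progenitor-like cells (-0.43, edgeR adjusted p 0.0362). Per-comparison medians ran from -0.06 to 0.04 for the Rab list and from -0.13 to 0.24 for the villin list, against medians of all genes between -0.0039 and 0.014 on the log2 scale.

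*Mab21l1*, the paralog of *Mab21l2*, was the only other family gene tested, in 10 comparisons, and edgeR called it in 0, with 3 at an unadjusted p under 0.05 and 1 by DESeq2. With the block it was lower in E14.5 migrating neuron-1-like (-0.99, edgeR adjusted p 0.00716), E14.5 granule progenitor-like (-0.45, edgeR adjusted p 0.0172) and E18.5 migrating PN-like cells (-0.70, edgeR adjusted p 0.0147). Of the NECAB, PCP4 and calmodulin genes, 9 to 17 of 21 were tested and edgeR called 0 of 134 pairs, with 15 at an unadjusted p under 0.05 and 3 by DESeq2. The block called 2 lower, *Gap43*, a growth cone protein that binds calmodulin, in E14.5 granule progenitor-like cells (-0.85, edgeR adjusted p 0.00197) and *Camk4*, a calmodulin-dependent kinase, in E18.5 granule progenitor-like cells (-0.71, edgeR adjusted p 0.0122). It called *Ncald*, a neuronal calcium sensor, higher in the latter cells (0.39, edgeR adjusted p 0.0292).

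The 15 genes of the *Atoh1* program were markers that the study chose on these samples, so their direction is not independent evidence. Over 152 pairs, against the 0.032% of all pairs called lower, edgeR called 2, both lower and both *Barhl1*, a homeobox gene of the lineage, in E14.5 PN progenitor-like cells (-2.30, SE 0.18, edgeR adjusted p 0.00149, with 0.00994% of all genes tested called lower) and E18.5 granule progenitor-like cells (-0.52, SE 0.07, edgeR adjusted p 0.0189). Of the program genes, all but *Barhl2*, *Dll1* and *Btbd17* were among the markers used to name lineages or classes, so these calls fell in classes that such genes helped to name. *Barhl1* was also used to name both lineages. The call in PN progenitor-like cells was lost against control library 3 alone (edgeR adjusted p 0.1005), and that in granule progenitor-like cells without control library 1, 2 or 3, mutant library 3 or at the 4% mitochondrial limit (edgeR adjusted p 0.0701 to 0.11). Over all alternatives its log2 change ran over -2.49 to -2.15 in the former and -0.55 to -0.45 in the latter cells. DESeq2 called 10 of the pairs, and the block called 17 lower and 6 higher. Over the same comparisons these fits called 0.183% of all gene and comparison pairs with DESeq2, and 0.32% lower and 0.252% higher with the block. The lower calls with the block included *Nhlh1* (-1.79, edgeR adjusted p 0.00227) in E14.5 intermediate progenitor-like cells, where *Dll1*, a Notch ligand, was higher (0.91, edgeR adjusted p 0.000115). Between stages in control granule progenitor-like cells edgeR called 6 of 19 Rab genes, 4 of 7 villin and actin genes, 6 of 12 calmodulin-group genes and 13 of 15 program genes in either direction, against the 18.4% lower and 19.6% higher among all genes tested. The villin and actin calls were all higher at E18.5 as was *Svil*, and included *Actn1* (1.02) and *Flna* (0.95), whose products crosslink actin filaments.

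Across the 20 named control classes of E14.5 and E18.5, the pattern of log2 CPM most like each gene was found among 10219 genes. These Pearson correlations describe classes that share libraries, and carry no test. *Rab15* was most like *Gm17322* (r = 0.88), *Mtcl1* (0.87) and *Btbd11* (0.86). *Svil* was most like *Fgfr4* (r = 0.96), *Chodl* (0.92) and *Rassf4* (0.91), the last of them in the *Atoh1* program list. *Mab21l2* was most like *St8sia2* (r = 0.93), *Sertad4* (0.88) and *Enc1* (0.87). *Necab2* was most like *Pou4f1* (r = 0.86), *G630016G05Rik* (0.84) and *Crabp2* (0.83), and *Pcp4* was most like *Rgs3* (r = 0.74), *Prelid3b* (0.72) and *Epha5* (0.68). Among the 5 genes *Rab15* and *Svil* were the most alike pair (r = 0.79), followed by *Mab21l2* and *Necab2* (0.46) and *Necab2* and *Pcp4* (0.45).

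At P5 the levels in the 6 PN-like subtypes are given for each of the 2 control libraries. *Pcp4* varied most, at 2438 and 2330.3 CPM in PN1-like and 1542 and 1608 CPM in PN6-like cells against 63.6 and 49.5 CPM in PN3-like and 49.3 and 28.4 CPM in PN5-like cells. PN2-like cells were at 1198 and 1083 CPM and PN4-like cells at 701 and 569 CPM, so each step in the order PN1, PN6, PN2, PN4 was wider than the gap between libraries, whereas PN3 and PN5 lay next to each other. *Mab21l2* lay between 200.0 and 202 CPM in PN1-like and 296 and 303 CPM in PN4-like cells. *Rab15* ranged from 27.2 and 20.4 CPM in PN3-like to 33.8 and 30.8 CPM in PN6-like cells, and most subtypes overlapped. *Necab2* was at 22 and 22.3 CPM in PN5-like and 11.6 and 9.14 CPM in PN6-like cells, and was higher in inhibitory neuron-like cells, at 79.9 and 80.9 CPM. *Svil* was nearly absent from all 6 subtypes, with means of 0.174 to 1.75 CPM, against 41.9 and 22.2 CPM in oligodendrocyte lineage-like and 23 and 18.1 CPM in glia-like cells.

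**Figure D4:**
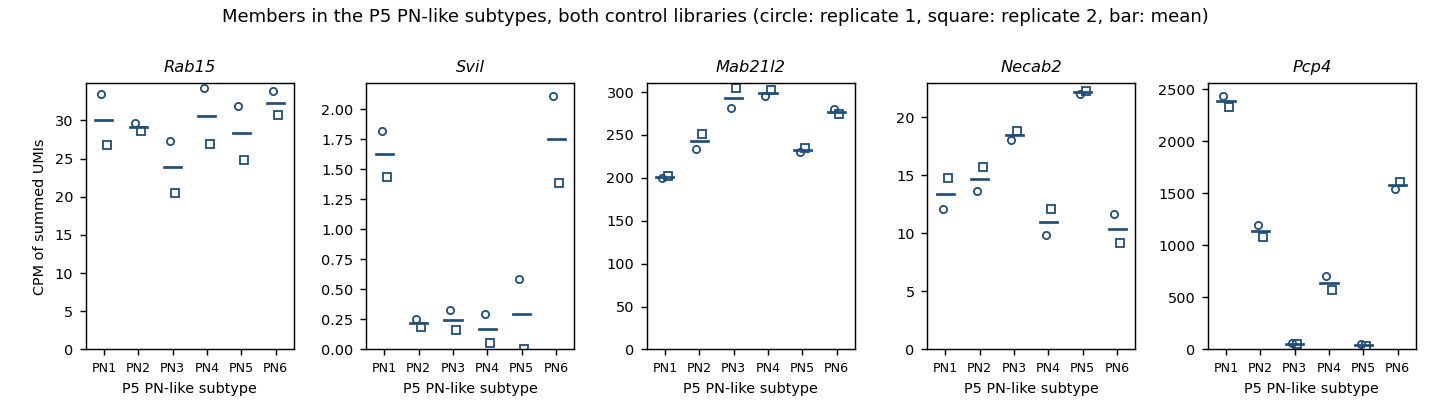
CPM on linear axes from 0 for each gene in the 6 P5 PN-like subtypes, with a circle for control library 1, a square for control library 2 and a bar for their mean. *Pcp4* ranges from a mean of 38.9 CPM in PN5-like to 2384 CPM in PN1-like cells, whereas the *Rab15* means stay between 23.8 and 32.3 CPM.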

How the data were processed

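Sorted TdTomato+ cells were profiled by 10x Genomics 3′ v3.1 libraries, which keep strand. The deposited values are raw UMI counts per gene and cell that the authors made with Cell Ranger against mm10 with WPRE added. The labels name version 5.0.1, and the file headers give 3.1.0 for 2 libraries and 5.0.1 for 12. Total UMIs per library ran from 108239001 to 236964126, and intervals cover spread or counting error only. The genes and lists were chosen with earlier results of these data known.

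The filters asked for 1000 genes per cell and a mitochondrial share under 5%, and then took out the top 7.5% of Scrublet scores. At E14.5 the first 2 filters passed 3511 of 7972, 6867 of 10407 and 7100 of 12869 control barcodes. They passed 5160 of 9672, 7474 of 9000 and 7104 of 10812 mutant barcodes, a larger share than in the same-numbered control each time. Each stage was clustered with scanpy 1.11.5 in Python 3.11.15 (counts scaled to 10000 per cell, 2000 variable genes, 30 components, 15 neighbors, Leiden resolution 1, seed 1), without the 5 genes, the checked genes or the lists. PN-like states and subtypes were named by the study's marker lists, found on these libraries. The granule lineage was named by limits on *Pax6*, *Barhl1*, *Zic1*, *Eomes* and the *Hoxb* genes, and its classes by cycling and neuronal markers set here. Other classes were also named by markers set here. The limits were set after cluster means had been seen. Genes of the lists were left out of the clustering but not of the naming. Cell counts differed between genotypes in several classes.

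Counts were summed per library and class with at least 10 cells and tested with edgeR 4.0.16 (TMM, quasi-likelihood, Benjamini-Hochberg) in R 4.3.3. Only the groups compared entered a fit, and p-values measure the spread between these embryos. Per the labels each mutant was collected with its littermate control, and equal replicate numbers were taken as a litter. Deviations of same-numbered libraries correlated at 0.0762 to 0.768 in 33 pairs, 1 of them under 0.1, against -0.599 to 0.276 in 66 other pairs. Deviations cancel out within a genotype, so positive same-numbered values lower the others by construction. The blocked value is given where it changes a call. Alternatives were DESeq2 1.42.0, no filter on genes, the block, leaving out libraries, control library 3 alone at E14.5, Leiden resolution 2.0, a 4% mitochondrial limit, 15% of Scrublet scores removed and unthinned cells. Leaving out litter 2, and single libraries in the stage comparisons, was added after seeing the data. The fit was tested on simulated counts with 200 genes changed by 2-fold. It recovered 68% in E14.5 granule progenitor-like and 57.5% in E14.5 newborn granule neuron-like cells. In both E18.5 granule classes it recovered 100%, and in E18.5 migrating PN-like cells 78%, with 12 to 18 false calls per class. Counts of calls at the 2 stages were therefore not made at equal power. Named genes were the 5 genes, 4 checks of the states, up to 3 called list genes per direction and comparison, and the 3 genes most like each, by Pearson correlation of log2(CPM + 10). A gene that this rule takes is not reported here. Genes named from the blocked fit among several called there were taken after their values were seen.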

Additional observations from a re-analysis of the deposited data

Results flagged for a closer look

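The mutant to control ratio of *Rab15* at E18.5 was below 0 on the log2 scale in the granule classes and above 0 in differentiated PN-like cells, in every litter. In granule progenitor-like cells the log2 ratios of the 3 litters were -1.93, -2.31 and -1.85, and in newborn granule neuron-like cells -0.21, -0.39 and -0.38. In differentiated PN-like cells they were 0.10, 0.12 and 0.15, and the fitted change of 0.10 had a 95% interval of -0.19 to 0.40. The fitted log2 change in granule progenitor-like cells was -2.37 apart from that in differentiated PN-like cells, and the change in newborn granule neuron-like cells was -0.48 apart from it. In migrating PN-like cells the litters did not move 1 way, with -0.52, 0.02 and -0.64. In differentiated PN-like cells the groups overlapped, and the fitted change ran over -0.0081 to 0.22 in the alternatives. That class held 260 ePN1-like cells of 1146 in controls and 80 of 1055 in mutants. The part of this make-up in the *Rab15* ratios was not tested. These differences between classes were not tested, and how many of all genes show the same pattern was not counted.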

How the results depend on the processing

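Of the counts and shares that answer a comparison, 63 values under the alternatives stayed near the reported one and 15 moved. The number of gene and class pairs called lower in the E14.5 granule lineage rose from 0 to 1 with DESeq2, with all genes of at least 1 UMI and with the replicate block, and was 0 to 1 when single libraries were left out. The number in the E18.5 granule lineage rose from 2 to 3 with DESeq2, with all genes of at least 1 UMI and with the replicate block, fell to 1 with under 4% mitochondrial UMIs and was 1 to 2 when single libraries were left out. The number in E18.5 PN-like cells rose from 0 to 1 over all genes of at least 1 UMI, through *Necab2*, which had few mutant UMIs. Such fits called 23 of 17218 genes lower in E18.5 migrating PN-like cells and 42 of 19289 in E14.5 granule progenitor-like cells. They called 61 of 21947 lower in E18.5 granule progenitor-like and 5 of 21864 in E18.5 newborn granule neuron-like cells. Without thinning the highest shares were 81.8% for *Rab15*, 68.4% for *Svil*, 99.9% for *Mab21l2* and 93.5% for *Necab2*. Of the values for single genes, 632 stayed, 24 moved, 14 lost and 8 gained their call and 29 tested values changed direction, all of the last kind uncalled. *Pcp4* in E14.5 granule progenitor-like cells turned to -0.50 with the replicate block, -0.044 with 15% of Scrublet scores removed, -1.11 without replicate 2 and -1.49 to 0.53 without single libraries. In E14.5 newborn granule neuron-like cells it turned to -0.13 with the block, -0.56 at Leiden resolution 2.0, -0.10 at the 4% limit, -0.0076 with 15% of Scrublet scores removed, -0.39 without replicate 2 and -0.86 to 0.49 without single libraries, and *Mab21l2* there turned to -0.27 at Leiden resolution 2.0. In E18.5 differentiated PN-like cells *Pcp4* turned to 0.0018 with DESeq2, 0.021 with the block, 0.11 at Leiden resolution 2.0 and -0.33 to 0.30 without single libraries, *Mab21l2* ranged over -0.052 to 0.0025 and *Rab15* over -0.0081 to 0.22. The *Rab15* interaction was -0.025 with the block and -0.13 to 0.40 without single libraries, and that of *Pcp4* -1.10 to 0.91. In the E14.5 PN-like states, given with no test, the direction also turned for *Pcp4* in progenitor-like (-0.76 to 0.16) and differentiated cells (-1.66 to 0.19), *Necab2* in differentiated cells (-1.10 to 0.44), *Svil* in migrating neuron-2-like cells (-0.79 to 1.21) and *Mab21l2* in migrating neuron-2-like (-0.29 to 0.16) and differentiated cells (-0.18 to 0.29). The causes were not tested. With the replicate block *Rab15* in E14.5 granule progenitor-like cells (-2.20) and *Mab21l2* in E18.5 newborn granule neuron-like cells (-1.10) were called, and the block changed no other call of the 5 genes outside the E14.5 PN-like states. Where an arm was left with 1 library, it was assumed to vary like the other group. The block raised the genes called from 33 to 167 in E18.5 granule progenitor-like cells, from 4 to 125 in E14.5 intermediate progenitor-like cells and from 0 to 70 in E14.5 granule progenitor-like cells. *Svil*, *Necab2* and *Pcp4* were under the filter in some classes and were not tested there. At E14.5, Leiden resolution 2.0 gave the smallest PN-like log2 changes of *Rab15* in intermediate progenitor-like cells and of *Necab2* and *Pcp4* in migrating neuron-1-like cells.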
